A study of Mus musculus with 9 samples.

Results

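Transcripts of 10 granule, alarmin and chitinase-like proteins were followed in CD11b positive, Ly6G negative myeloid cells of the incised mouse hindpaw. The genes were chosen by name, with earlier results of these data known (Cd177, Chil3, S100a8, S100a9, Ngp, Camp, Lcn2, Ltf, Mpo and Elane). All 10 of 10 were found among the 22180 genes measured, each by 1 probe set. The mice were C57BL/6J males, 8 weeks of age, and the plantar hindpaw was taken 24 h after its incision. No group of unwounded animals was analysed here. Flow cytometry divided the cells by surface Ly6C into a low, a medium and a high gate, with 3 arrays per gate and 9 in all. All 9 arrays share the wound, the strain, the sex, the age and the gate on CD11b and Ly6G, and the labels do not say whether the arrays of a gate are separate animals or pools. Levels are log2 intensities, so a step of 1 is a doubling.

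Neutrophils store their weapons in granules that form in a fixed order in the bone marrow. Primary granules, with myeloperoxidase and elastase, form first, and specific granules, with lactoferrin, cathelicidin and lipocalin, form later, so their messenger RNAs belong mainly to marrow precursors and fade in mature blood cells. S100A8 and S100A9 pair into calprotectin, a calcium- and metal-binding protein of the cytosol of neutrophils and monocytes that acts as an alarmin once it leaves the cell. Chil3 and some granule transcripts are also made by a part of the classical, Ly6C high monocytes of mice. The Ly6G gate should remove mature neutrophils.

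The transcripts fell into 3 kinds. Cd177 and Chil3 followed the Ly6C gate and were lowest in Ly6C low. S100a8, S100a9 and Lcn2 were measured in every gate and did not pass the test between gates, which left the replicate number out. Ngp, Camp, Ltf, Mpo and Elane lay at the background of the array in all gates. That background was set from 1105 odorant receptor genes, which myeloid cells are taken not to use, and it is the 95th percentile of their mean levels, 4.18. By this measure 51% of all genes and 5 of the 10 members lay above background. Ly6c2, which encodes Ly6C and so follows the sort, stood at 7.69, 7.9 and 9.4 in Ly6C low, at 11.27, 11.20 and 11.20 in medium and at 12.26, 12.48 and 12.08 in high. Itgam, which encodes CD11b, lay between 10.43 and 11.14 on all arrays, and Adgre1, which encodes F4/80, between 9.5 and 10.54. Ly6g lay at 2.85, 4.61 and 3.28 in low, 2.79, 2.74 and 3.64 in medium and 2.88, 3.28 and 2.91 in high, above the background of its own array on 1 of the 9, low replicate 2.

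**Figure D1:**
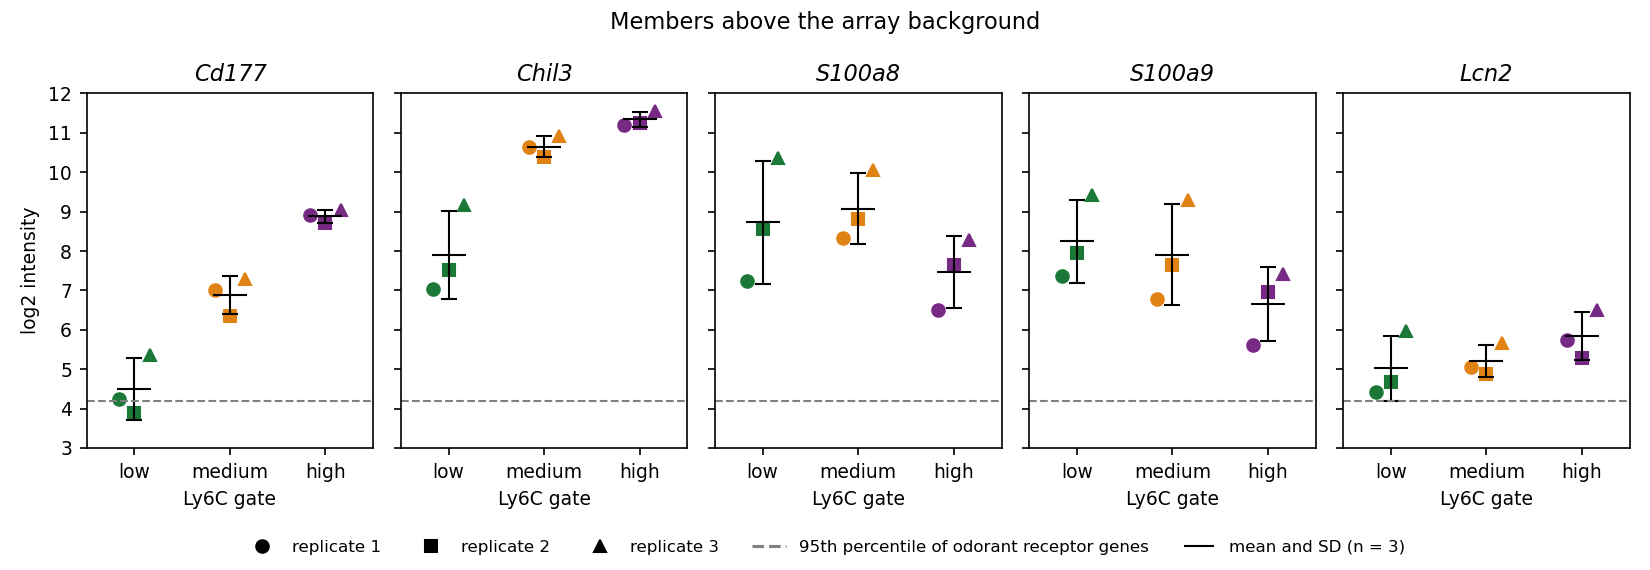
The 5 members above background are plotted as log2 intensity (vertical axis) against the Ly6C gate, with a symbol per replicate, the mean and SD of 3 arrays in black and the 95th percentile of odorant receptor genes as a dashed line. Cd177 and Chil3 step up over low, medium and high without overlap, whereas the S100a8, S100a9 and Lcn2 arrays spread widely inside each gate and replicate 3 is the highest of its gate in every panel.

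The start regions of the 4 members that were brightest on any array are given because Cd177 with Chil3 and S100a8 with S100a9 moved in pairs. Each runs 5′ to 3′ from 250 bases before to 50 bases after the start site annotated by RefSeq on GRCm38.p6. Capitals mark matches, on either strand, to the C/EBP motif TTGCNNAA, the PU.1 motif GAGGAAGT and the TATA box TATAAA. The TATA box was added after the values and sequences had been seen. Cd177 starts on the minus strand at chr7:24760262-24760561, Chil3 on the minus strand at chr3:106167515-106167814, S100a8 on the plus strand at chr3:90668821-90669120 and S100a9 on the minus strand at chr3:90695672-90695971.
Cd177: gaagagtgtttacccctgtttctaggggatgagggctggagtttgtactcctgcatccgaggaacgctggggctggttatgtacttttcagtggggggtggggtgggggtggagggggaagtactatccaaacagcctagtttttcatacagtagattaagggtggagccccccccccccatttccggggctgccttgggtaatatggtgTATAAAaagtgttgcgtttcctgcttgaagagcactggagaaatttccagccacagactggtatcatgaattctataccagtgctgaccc
Chil3: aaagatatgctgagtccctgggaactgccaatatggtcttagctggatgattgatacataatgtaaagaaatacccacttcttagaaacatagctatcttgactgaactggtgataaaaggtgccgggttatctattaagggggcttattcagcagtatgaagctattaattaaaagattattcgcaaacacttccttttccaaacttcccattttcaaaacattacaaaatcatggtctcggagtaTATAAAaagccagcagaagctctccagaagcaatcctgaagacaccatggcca
S100a8: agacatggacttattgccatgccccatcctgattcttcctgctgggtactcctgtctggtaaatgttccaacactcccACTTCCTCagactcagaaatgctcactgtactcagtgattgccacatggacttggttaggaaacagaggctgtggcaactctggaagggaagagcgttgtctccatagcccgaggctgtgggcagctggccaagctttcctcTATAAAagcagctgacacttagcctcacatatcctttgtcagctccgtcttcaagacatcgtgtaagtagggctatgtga
S100a9: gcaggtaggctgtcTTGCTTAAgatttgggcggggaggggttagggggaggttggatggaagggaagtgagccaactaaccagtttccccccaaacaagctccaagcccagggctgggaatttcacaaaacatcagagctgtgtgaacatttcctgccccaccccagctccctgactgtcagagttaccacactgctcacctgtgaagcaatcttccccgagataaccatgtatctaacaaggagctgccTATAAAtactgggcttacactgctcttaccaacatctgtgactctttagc

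All 4 of these windows held the TATA letters, and none of the windows of the other 6 members did. Counted from the annotated start, the match began at position -40 in Cd177, -3 in Chil3, -30 in S100a8 and 0 in S100a9, and the same letters occur in 13.6% of 32851 start windows. The C/EBP letters were present in the windows of 4 members, Lcn2, S100a9, Ngp and Ltf, against 10.8% of all windows. The PU.1 letters were present in 3, S100a8, Elane and Mpo, against 3.2%. Marked matches of different motifs did not overlap. The windows of Cd177 and Chil3 held neither the C/EBP nor the PU.1 letters. Matches are letters in a window and say nothing of binding.

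Cd177 showed the largest difference between Ly6C low and high among the 10. It encodes a GPI-anchored surface glycoprotein that neutrophils also keep in the membrane of specific granules. Its levels were 4.23, 3.88 and 5.37 in Ly6C low, 7.01, 6.36 and 7.28 in medium and 8.91, 8.71 and 9.04 in high. No array of a gate overlapped another gate, and only low replicate 2 lay below the background of its own array. Low replicate 1, at 4.23, lay close to background (95th percentiles of single arrays 4.06 to 4.42), so folds against low are limited by background. Cd177 was lower in low than in high by a log2 difference of -4.40 (SE 0.36, limma adjusted p = 0.000435), a 21.1-fold difference. It was also lower in low than in medium, by -2.39 (SE 0.36, limma adjusted p = 0.0166), a 5.24-fold difference. Medium minus high was -2.01 (SE 0.36, limma adjusted p = 0.0948), which missed the threshold of 0.05 although the arrays did not overlap. That comparison passed when dim genes were left out of the test, at limma adjusted p = 0.0465 for genes above the array median and 0.035 for genes at a log2 value of 6 or more on at least 3 arrays. It also passed without low replicate 3 (limma adjusted p = 0.0407), which bears on the shared spread alone. On leaving out any other single array it missed the threshold, up to limma adjusted p = 0.322 without medium replicate 2. With only the 2 gates compared in the fit it missed the threshold as well (limma adjusted p = 0.116).

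Chil3 encodes Ym1, a secreted chitinase-like protein without chitinase activity. It stood at 7.03, 7.53 and 9.16 in Ly6C low, 10.64, 10.39 and 10.92 in medium and 11.20, 11.26 and 11.56 in high. Medium lay close under high, and low lay well below both, with low replicate 3 above the other low arrays. The difference was -3.43 for low minus high (10.8-fold, SE 0.45, limma adjusted p = 0.00344) and -2.74 for low minus medium (SE 0.45, limma adjusted p = 0.0217). Medium minus high, at -0.69 (SE 0.45, limma adjusted p = 0.776), did not pass, although the highest medium array was below the lowest high array. Chil3 has a near copy in the mouse genome, Chil4, and reads of the 2 transcripts by an array can mix. The probe set of Chil4 lay at background on all arrays, between 2.55 and 3.12.

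Both low minus medium calls depended on single arrays. For Cd177 the call was lost without low replicate 1 (limma adjusted p = 0.0691), low replicate 2 (0.0565), medium replicate 1 (0.0689) or medium replicate 3 (0.0696). For Chil3 it was lost without low replicate 1 (limma adjusted p = 0.0627), low replicate 2 (0.0894) or any of medium replicates 1, 2 and 3 (0.079, 0.0552 and 0.0929). The low minus high calls held when any single array was dropped, up to a limma adjusted p of 0.00388 for Cd177 and 0.0203 for Chil3. They were lost when the 3 arrays numbered replicate 1 were dropped together (limma adjusted p = 0.0591 for Cd177 and 0.0928 for Chil3), and that of Chil3 was lost without those numbered 2 (0.12), which leaves 2 arrays per gate. In bulk samples such as these, fewer cells that make a transcript and less of it per cell cannot be told apart.

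Over the 10 members, limma passed 2 as lower and 0 as higher in Ly6C low than in high, Cd177 and Chil3, against 5.67% of all genes in either direction and 2.32% as lower. At an unadjusted p under 0.05 there were also 2 members, against 17.9% of all genes. The same 2 passed as lower in low than in medium, against 1.93% of all genes in either direction and 0.541% as lower, and 14.1% of all genes were at an unadjusted p under 0.05. Over all genes, 307 were higher and 120 lower in low than in medium, and 242 and 162 after quantile normalization was repeated. In medium minus high limma passed 0 members, against 0.239% of all genes, with 1 at an unadjusted p under 0.05, Cd177, against 7.53%. A moderated F test over the 3 gates passed Cd177 (limma adjusted p = 0.00154) and Chil3 (0.00757), 2 of 10 members against 4% of all genes. Arrays did not overlap between low and high for 2 of the 10 members, where 20.1% of all genes had that property. For medium against high it was 4 of 10, Cd177, Chil3, S100a8 and the background gene Ngp, against 10.7%, and for low against medium 2 of 10 against 16.8%. The comparisons share gates, so their calls are not independent of each other. The members were chosen with earlier results of these data known, so their counts beside all genes are a description only.

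**Figure D2:**
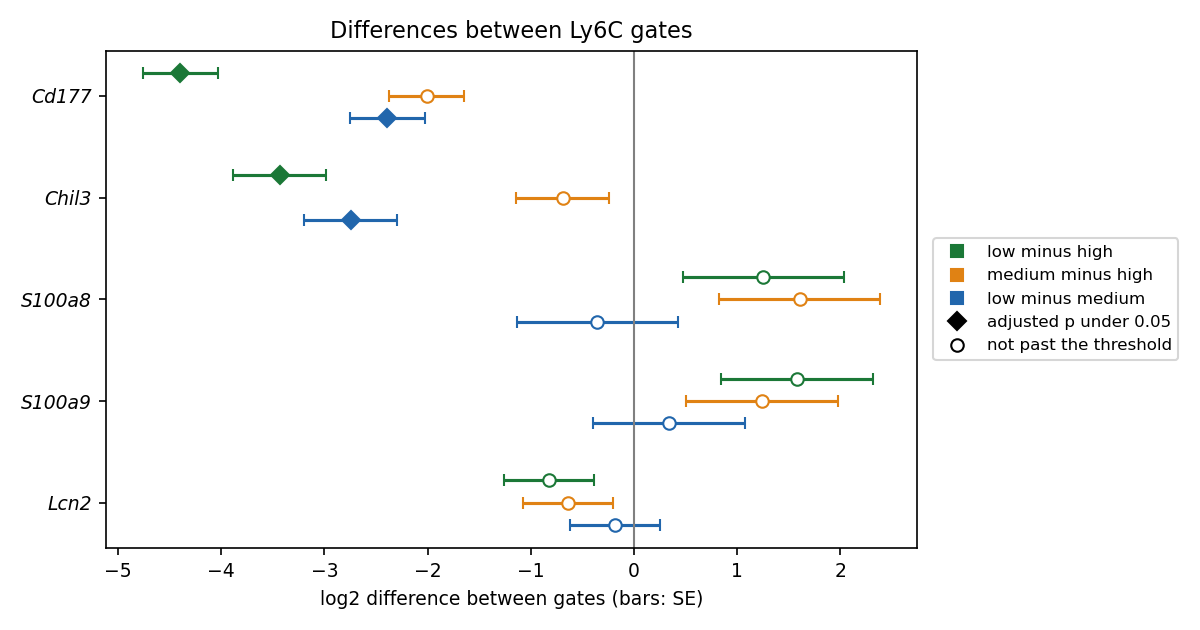
Log2 differences between gates (horizontal axis) with their SE from the limma fit are drawn for the 5 members above background, with filled diamonds for an adjusted p under 0.05. Cd177 and Chil3 lie left of 0 in all 3 comparisons with 2 filled marks each, and the marks of S100a8, S100a9 and Lcn2 are all open.

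S100a8 and S100a9, the chains of calprotectin, had their lowest means in Ly6C high with a wide spread inside the gates. No comparison passed in the fit over all arrays that leaves the replicate number out. The fit with that number is described at the end. S100a8 was at 7.25, 8.57 and 10.37 in Ly6C low, at 8.34, 8.82 and 10.07 in medium and at 6.49, 7.65 and 8.28 in high. Low spanned 3.12 log2 units among its own arrays, and low and high overlapped. The S100a8 difference was 1.26 for low minus high (SE 0.78, limma adjusted p = 0.488), 1.61 for medium minus high (SE 0.78, limma adjusted p = 0.687) and -0.35 for low minus medium (SE 0.78, limma adjusted p = 0.896). S100a9 was at 7.37, 7.95 and 9.42 in low, 6.77, 7.65 and 9.29 in medium and 5.61, 6.96 and 7.41 in high. Every gate overlapped the next, and the S100a9 differences were 1.59 for low minus high (SE 0.74, limma adjusted p = 0.31), 1.24 for medium minus high (SE 0.74, limma adjusted p = 0.744) and 0.34 for low minus medium (SE 0.74, limma adjusted p = 0.893). The means of low over high differed 2.39-fold for S100a8 and 3-fold for S100a9, and in this fit neither passed.

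Lcn2 encodes lipocalin 2, which binds bacterial siderophores and so withholds iron, and which activated macrophages and epithelia make as well as neutrophil precursors. It stood at 4.41, 4.68 and 5.97 in Ly6C low, 5.05, 4.89 and 5.66 in medium and 5.74, 5.29 and 6.49 in high. All 9 arrays were above their background, and all gates overlapped. Low replicate 1, at 4.41, lay close to background (95th percentiles of single arrays 4.06 to 4.42), which may limit differences against low. The difference was -0.82 for low minus high (SE 0.43, limma adjusted p = 0.388), -0.64 for medium minus high (SE 0.43, limma adjusted p = 0.784) and -0.18 for low minus medium (SE 0.43, limma adjusted p = 0.905).

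The remaining specific granule transcripts gave no signal over background. Ngp, a cathelin-like protein of neutrophil granules, lay between 2.93 and 3.30, and Camp, the precursor of the antimicrobial peptide cathelicidin, between 2.65 and 3.33. Ltf, the iron-binding protein lactoferrin, lay between 3.46 and 3.76. Each of these 3 was above the odorant receptor background of its array on 0 of 9 arrays, and their means over all arrays stood at the 20.3, 16.3 and 36.4 percentile of all genes.

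The primary granule enzymes were at background too. Mpo, the peroxidase that makes hypochlorous acid, was at 3.98, 3.84 and 4.10 in Ly6C low, 4.55, 4.28 and 3.96 in medium and 4.03, 4.05 and 4.06 in high, and 1 array of 9, in medium, exceeded its background. Elane, neutrophil elastase, lay between 3.61 and 4.23 and exceeded it on 0 of 9. With limma, no comparison of these 5 genes came near the threshold, the lowest adjusted p over the 3 comparisons being 0.446 for Mpo, 0.47 for Ltf, 0.758 for Ngp, 0.972 for Elane and 0.973 for Camp. As both gates of each comparison lay at background, no fold is given, and a low level of these transcripts was not detectable on this array.

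**Figure D3:**
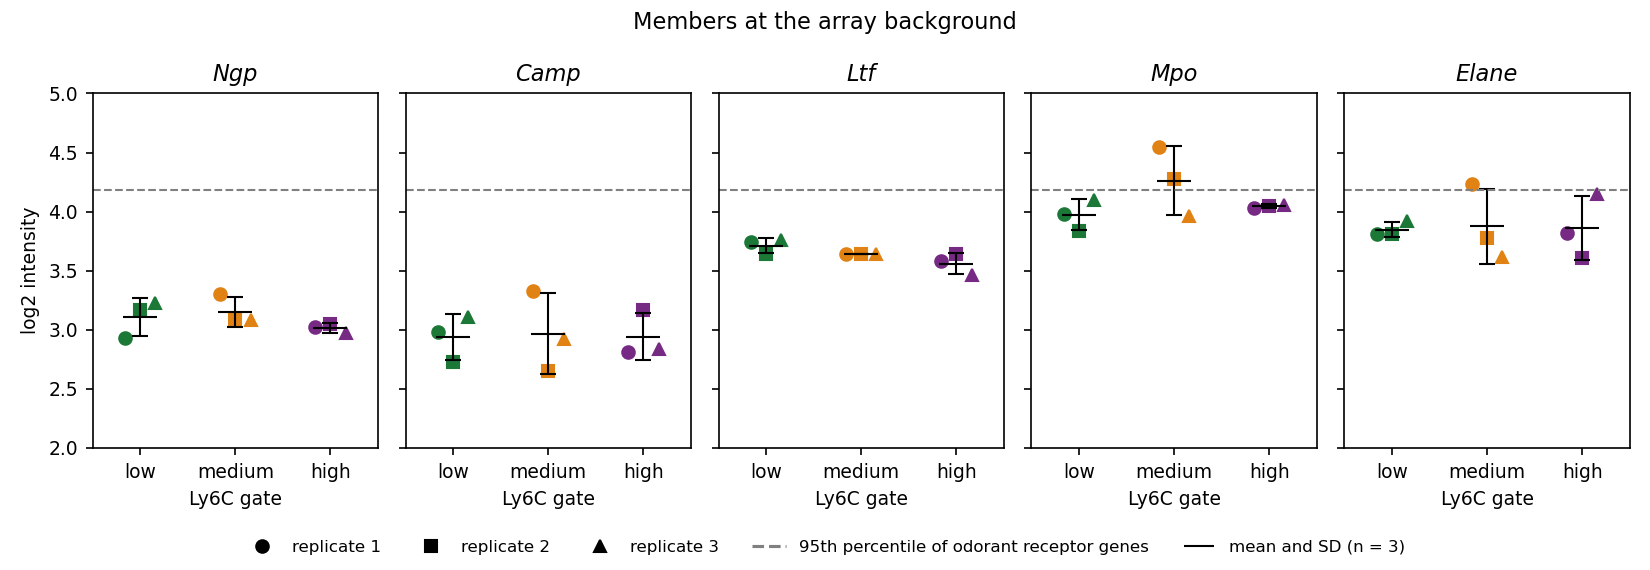
The 5 members at background are plotted as log2 intensity (vertical axis) against the Ly6C gate, with a symbol per replicate, mean and SD of 3 arrays, and the 95th percentile of odorant receptor genes as a dashed line at 4.18. Values lie between 2.65 and 4.55, and the arrays above the line belong to Mpo and Elane.

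Inside the gates, the 5 members above background shared a feature. The array numbered replicate 3 was the highest of its gate for all 5 of them in all 3 gates, a property of 4.64% of all genes and of 0 of the 5 members at background. For S100a8 and S100a9, replicate 1 was also the lowest in every gate, as for 0.654% of all genes. S100a8 on replicate 3 stood above its gate mean by 1.64 in Ly6C low, 0.99 in medium and 0.81 in high. Lcn2 on replicate 3 stood above its gate mean by 0.95, 0.46 and 0.65 in low, medium and high, and Cd177 by 0.87, 0.39 and 0.16. The labels attach no day, batch or animal to the number, and they state that all cells were collected on the same day. As a description over the 9 arrays after the gate means were taken away, S100a8 correlated with S100a9 at r = 0.941, Chil3 with Lcn2 at 0.878 and Cd177 with Chil3 at 0.859, and the other 7 pairs lay between 0.573 and 0.865. With the gate means left in, S100a8 and S100a9 correlated at 0.931 and Cd177 and Chil3 at 0.946, while Cd177 and S100a9 stood at -0.441. These arrays share gates and normalization.

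**Figure D4:**
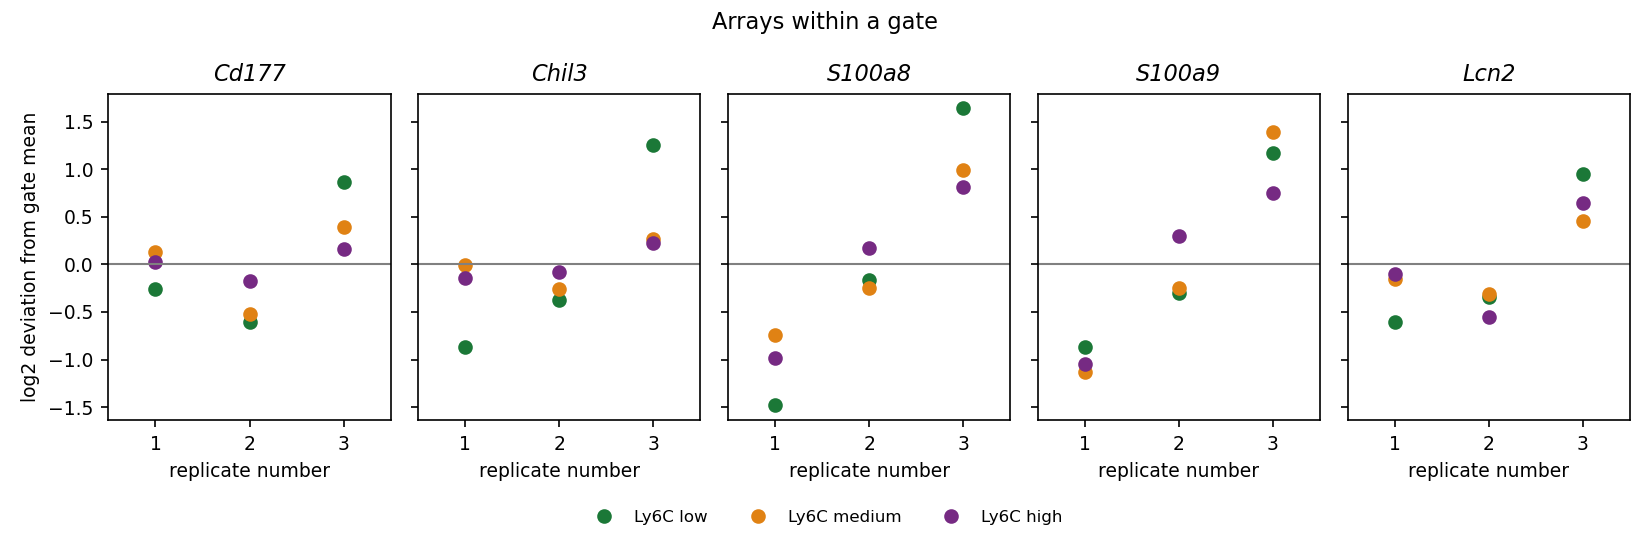
The deviation of each array from its gate mean (vertical axis, log2) is plotted against the replicate number, with a colour per gate, for the 5 members above background. All points of replicate 3 lie above 0, and all points of replicate 2 lie below 0 except those of S100a8 and S100a9 in Ly6C high.

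Markers of neutrophils moved with that array as well, in part. Of 15 neutrophil genes, 4 were highest on replicate 3 in all gates, a property of 4.64% of all genes. The rest were not. On replicate 3, Pglyrp1 and Padi4 were the lowest of Ly6C medium, at 5.9 and 4.79, and Il1r2 the lowest of Ly6C high, at 8.43. Cxcr2, the receptor that draws neutrophils to chemokines, was at 5.08, 5.02 and 7.58 in Ly6C low, 5.02, 4.96 and 6.38 in medium and 4.45, 4.93 and 5.04 in high. Stfa2l1, a stefin protease inhibitor, was at 4.66, 5.08 and 8.69 in low, 3.64, 7.11 and 8.54 in medium and 2.77, 6.3 and 4.59 in high, so that replicate 3 was highest in low and medium but not in high; near copies of the stefins can share probes. The mean level of the 15 genes ranged over 5.38 to 6.56 in low, 5.44 to 6.04 in medium and 5.35 to 5.70 in high, with replicate 3 highest in each gate. Of the 15, 13 lay above background on average, but the defining gene Ly6g did not. The part of such cells in the S100a8 and S100a9 values was not tested. Without the 3 arrays numbered 3, S100a8 stood at 0.84 (limma adjusted p = 0.605) and S100a9 at 1.37 (0.284) for low minus high, while Cd177 and Chil3 both passed at 0.00312.

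Keratinocytes also make S100a8 and S100a9 when skin is wounded. Krt6a, a keratin of wounded epidermis, was at 4.23, 4.35 and 4.23 in low, 3.83, 3.95 and 4.23 in medium and 4.81, 8.17 and 4.23 in high. Krt14 and Krt16 were also highest on high replicate 2, at 8.39 and 6.4, whereas Krt10 and Krt17 were highest in that gate on replicate 1, at 7.38 and 5.59. On high replicate 2, S100a8 stood 0.17 and S100a9 0.3 above the gate mean, the only replicate 2 values of these genes above it, and on high replicate 3 they stood 0.81 and 0.75 above it. The mean level of 10 keratinocyte genes ranged over 4.70 to 4.88 in low, 4.70 to 4.97 in medium and 4.47 to 5.70 in high. Of these genes limma passed 1, Sfn, as higher in low than in high and 0 as lower, against 3.35% and 2.32% of all genes. The part of keratinocytes in the S100a8 and S100a9 values was not tested.

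Other granule genes were read from lists. Over all genes, limma passed 2.32% as lower and 3.35% as higher in low than in high. These shares stand beside the counts of every list below. Among 16 further genes of specific and gelatinase granules, limma passed 6 as lower in Ly6C low than in high and 0 as higher, at a median log2 difference of -0.33 beside 0.012 over all genes. Hp, haptoglobin, which binds free haemoglobin, was at 7.0, 6.69 and 6.67 in low, 8.38, 8.69 and 8.35 in medium and 9.98, 9.58 and 9.75 in high. It fell by 2.98 in low relative to high (limma adjusted p = 9.78e-05), and medium was lower than high by a log2 difference of -1.30 (limma adjusted p = 0.0176). Mmp8, neutrophil collagenase, had 5.15, 4.72 and 6.18 in low, 7.57, 7.31 and 7.62 in medium and 7.89, 8.00 and 8.52 in high, and it fell by 2.78 in low relative to high (limma adjusted p = 0.00222). Ptx3, the pattern recognition protein pentraxin 3, and Mcemp1 also fell (limma adjusted p = 0.0159 and 0.0441). Ptx3 was above background on 5 of 9 arrays and at 4.05, 4.07 and 3.9 in low, so its difference is limited by background. Mmp9, gelatinase B, was at 5.18, 5.46 and 6.57 in low, 5.18, 5.18 and 5.43 in medium and 4.58, 4.75 and 4.82 in high (limma adjusted p = 0.0945 for low minus high). Mcemp1 missed the threshold on leaving out any of 7 arrays, with the highest p, 0.139, when high replicate 3 was dropped. Ptx3 missed it for 2 arrays, with 0.0584 when low replicate 1 was dropped.

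Of 8 further genes linked to primary granules, 2 were higher and 1 lower in low than in high, at a median of -0.09. Lyz1, a lysozyme, rose by 2.73 (limma adjusted p = 0.0045), with 10.57, 10.80 and 10.16 in low, 7.67, 9.19 and 7.71 in medium and 7.92, 7.98 and 7.45 in high. Its near copy Lyz2 stood between 12.07 and 12.37 on all arrays, and signals of the pair can mix. Cd63, a granule and lysosome membrane protein, rose by 0.49 (limma adjusted p = 0.0256), and Srgn, the proteoglycan that packs granule proteases, fell by 0.58 (limma adjusted p = 0.0214). Of the proteases made together with Elane, Prtn3 lay between 4.31 and 5.0, above the background of its array on 9 of 9, and Ctsg lay between 3.2 and 3.86, above it on 0 of 9. The call of Cd63 was lost on leaving out any of 5 arrays (highest limma adjusted p 0.0864, high replicate 3). That of Srgn was lost on leaving out any of 4 (0.0796, low replicate 1).

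**Figure D5:**
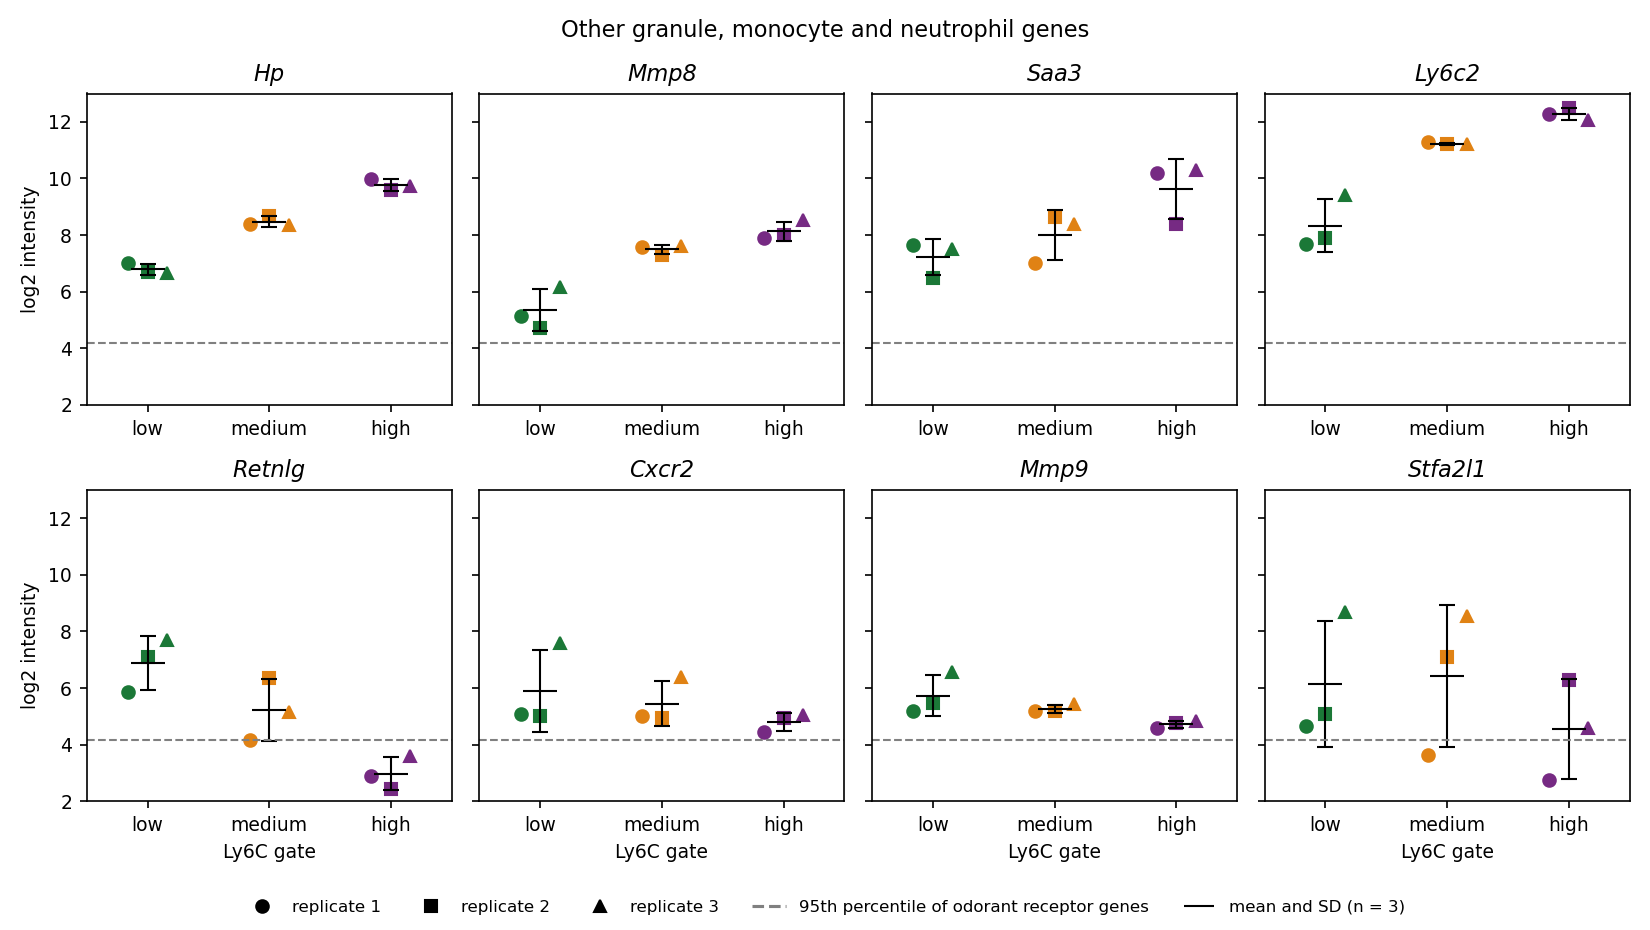
Log2 intensity (vertical axis) of 8 other genes is plotted against the Ly6C gate, with a symbol per replicate, mean and SD of 3 arrays, and the odorant receptor background as a dashed line. Hp, Mmp8 and Ly6c2 step up over low, medium and high without overlap, whereas Retnlg is lower in high than in low, where its arrays lie between 5.85 and 7.70.

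Relatives of the alarmins and of Chil3 are set against the 5.67% of all genes called for low minus high. Of 15 other S100 genes, 1 was higher, S100a1, and 1 lower, S100a16, in low than in high, at a median of -0.03 (limma adjusted p = 0.0409 and 0.0481). The call of S100a1 was lost on leaving out any of 6 arrays and that of S100a16 on leaving out any of 7. The highest limma adjusted p was 0.127 and 0.141, both for high replicate 2, and S100a16 was at background in both gates. S100a4 and S100a6 were bright, at 11.81 to 12.09 and 12.14 to 12.34. Of 8 other chitinase family genes limma passed 0 in any comparison, and 0 were at an unadjusted p under 0.05 for low minus high. Only 2 of the 8, Chid1 and Ctbs, lay above background on average, and for the rest no difference could be read. Of 8 other alarmins, limma passed Saa3, an acute phase protein, as lower in low (fell by 2.40, limma adjusted p = 0.0493) and 0 as higher. Saa3 missed the threshold on leaving out any of 7 arrays (highest p 0.162, low replicate 2).

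Receptors, inhibitors and regulators linked to the members were read next. Of 13 receptors for these proteins and their ligands, 3 were lower in low than in high and 0 higher, at a median of -0.26. Fpr2, a formyl peptide receptor that also senses cathelicidin, fell by 1.94 (limma adjusted p = 0.00304). Cd14, which works with the calprotectin receptor Tlr4, fell by 0.76 (limma adjusted p = 0.0342), and Emb, embigin, fell by 0.70 (limma adjusted p = 0.0144). Cd14 missed the threshold on leaving out any of 8 arrays and Emb on leaving out either of 2 (highest p 0.109 and 0.0509, both for high replicate 3). Of 8 inhibitors of granule proteases, limma passed Serpinb1a, which blocks elastase, as higher in low and 0 as lower. Serpinb1a was above background on the 3 low arrays alone, and by the same bound it was at least 1.5-fold higher in low than high (limma adjusted p = 0.00143). Slpi, the secretory leukocyte protease inhibitor, stood at 8.65, 9.50 and 11.27 in low, 10.68, 11.13 and 11.96 in medium and 11.53, 11.09 and 12.19 in high, and was the highest of its gate on replicate 3 each time.

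Of 10 transcription factors of granulocytes and monocytes, limma passed 1 as lower in low than in high, Cebpb, and 0 as higher, at a median of -0.28. Cebpb fell by 0.65 (limma adjusted p = 0.0128), a call lost without low replicate 1 (0.0521). Cebpe, which specific granule genes require, was at 5.50 ± 0.06 in low, 5.63 ± 0.28 in medium and 5.70 ± 0.13 in high (SD, n = 3 each, limma adjusted p = 0.56 for low minus high).

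Genes described in neutrophil-like monocytes included calls in both directions. Of 11, limma passed 5 as lower in low than in high, Hp, Mmp8, Saa3, Mcemp1 and Plbd1, and 1 as higher, Retnlg, at a median of -0.37. The lists overlap, as Hp, Mmp8, Saa3, Mcemp1 and Retnlg also stand in other lists, so the counts are not separate results. Retnlg, a resistin-like protein of neutrophils, was at 5.85, 7.11 and 7.70 in low, 4.18, 6.36 and 5.16 in medium and 2.9, 2.45 and 3.59 in high. All 3 high arrays of Retnlg lay at background, so its rise is a bound. With each high array set to its odorant receptor 95th percentile, Retnlg was at least 6.57-fold higher in low than high. The limma adjusted p of 0.00712 belongs to the measured log2 difference of 3.91, and the bound itself was not tested. In the neutrophil list, limma passed Retnlg as higher and Mmp8, Csf3r and Padi4 as lower, 1 and 3 of 15. Csf3r missed the threshold on leaving out any of 5 arrays (highest p 0.0977, low replicate 1) and Padi4 on leaving out any of 8 (0.126, high replicate 1).

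Markers of other cells also differed between the gates, some in the direction of Cd177 and Chil3 and others in the opposite direction. Of 9 classical monocyte genes, limma passed 7 as lower in low than in high and 0 as higher. Ly6c2, Vcan, Hp and Plac8 were the largest (-3.94, -3.00, -2.98 and -2.11), and the sort itself acts on Ly6c2. F13a1 and Fn1 did not pass. F13a1 lay the other way, at 11.23, 11.27 and 10.47 in low and 10.02, 10.35 and 9.94 in high. Of 11 fibroblast genes, 10 were lower in low than in high and 0 higher. In medium 8 of them were lower than in high, against 0.198% of all genes. The collagens Col1a2 and Col3a1 and the matrix genes Dpt and Lum differed by -4.53, -3.43, -4.03 and -3.92 for low minus high. Their mean level ranged over 4.87 to 4.99 in low, 5.32 to 5.47 in medium and 7.09 to 8.35 in high, and 10 of the 11 lay above background on average. Inside Ly6C high that level was lowest on replicate 3, at 7.09, where Cd177 was highest, at 9.04. All 10 tissue macrophage genes were higher in low, among them Cd163 and Lyve1 by log2 differences of 4.05 and 4.28, with mean levels of 9.70 to 9.84 in low, 7.84 to 8.61 in medium and 7.02 to 7.47 in high. Dendritic cell genes were higher in low for 3 of 8 (Ccr7, Cd207 and Flt3), eosinophil genes for 3 of 6 (Prg2, Ccr3 and Alox15, each missing the threshold for at least 1 array left out) and mast cell and basophil genes for 1 of 8 (Kit), and limma passed 0 genes of these lists as lower. On average 7 of the 8 dendritic cell, 3 of the 6 eosinophil and 1 of the 8 mast cell and basophil genes lay above background. The others could hardly show a difference, and Alox15 lay at background on all high arrays. Vsig4 lay at background on the 3 high arrays and was at least 10.8-fold higher in low, and Timd4, at 4.0, 4.03 and 4.35 in high, lay close to it. The part of these cells in the Cd177 and Chil3 differences was not tested.

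The genes most like a member were taken by Pearson correlation over the 9 arrays, as a description across arrays that share gates. For Cd177 they were Emilin2, Klra2, Snx18, AI839979 and Gpr35, at r = 0.976 to 0.99. For Chil3 they were Slfn1, Rhou, Thbs1, Adam8 and Arg2, at r = 0.988 to 0.993, of which Adam8, a membrane protease stored in neutrophil granules, is also in the granule list. For S100a8 the nearest gene above background was S100a9, at 0.931, and the nearest of all, Tbx20 at 0.947, was at background; Cyp2u1, Cstdc4 and N6amt1 followed. For S100a9 the nearest were S100a8 and N6amt1, both at 0.931, followed by the background genes Tmem61, Jakmip2 and Obox5. For Lcn2 they were D16Ertd472e, Cpsf7, Rela, Plekhg2 and Cited2, at r = 0.946 to 0.97, and Rela encodes a subunit of NF-kB. After the gate means were taken away, the genes above background among the 5 nearest were Mkrn2 for Cd177, Mmp9, Cdkn2aip and Utp3 for Chil3, and Ppp2r2a, Hif1a, Mefv, Slfn2 and Nod1 for S100a8. For S100a9 they were Cop1, Mir17, Fbxo11, Med7 and Snhg5, and for Lcn2 Acod1, Phlda1, N4bp1 and Pvr, at r = 0.971 to 0.993 over all of these.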

How the data were processed

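Gene expression was measured on Affymetrix arrays from amplified RNA of sorted cells. The deposited values are log2 intensities per probe set, made by the authors with RMA per the submitters' processing notes; version, settings and genome build are not given in the sources used here. Of 41345 probe sets, 23521 had 1 gene symbol and were kept, with 1814 naming several and 16010 not in the probe table left out. Gene identifiers of 23328 matched RefSeq (GRCm38.p6), which also gave the start regions of all 10 members. A gene was read from its probe set with the highest mean, giving 22180 genes; array medians over them lay between 4.16 and 4.3; precision is set by how many arrays there are.

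All 9 arrays entered a single fit (R 4.3.3, limma 3.58.1, lmFit and eBayes, 6 residual degrees of freedom, two-sided), with Benjamini-Hochberg adjustment over all genes at 0.05. Nothing says the arrays of a gate are separate animals, so p-values measure the spread between samples, which may be technical. The procedure was tested on simulated data. Members and lists were chosen with earlier results of these data known, and the odorant receptor background after the values were seen. Named were all members, up to 4 called genes per list with the largest low minus high difference, fixed defining genes, and the 5 genes most correlated with each member spanning at least 1 log2 unit. Stfa2l1, Slpi, Krt6a, Krt10, Krt14, Krt16, Krt17, Lyz2, S100a4, S100a6 and Plbd1 were named after their values were seen. Alternatives changed the normalization, probe set rule, filter, prior, array weights, blocking and arrays used.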

Additional observations from a re-analysis of the deposited data

How the results depend on the processing

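The calls of Cd177 and Chil3 as lower in Ly6C low than in high held under the 10 other settings that keep all arrays of a gate compared and when any single array was dropped (log2 differences of -4.83 to -4.09 for Cd177 and -4.06 to -3.00 for Chil3 without an array). Members called for low minus high stayed at 2 without each array, those for medium minus high ranged over 0 to 1, those for low minus medium over 0 to 2, and those of the F test stayed at 2. All genes called ranged over 596 to 1243 for low minus high (against 1258), 2 to 72 for medium minus high (against 53), 119 to 522 for low minus medium (against 427) and 342 to 827 for the F test (against 888). With only the 2 gates compared in the fit, fewer arrays gave 644, 1 and 211 genes, and 0 members for low minus medium. A threshold of 2-fold left 598 and 227 genes for low minus high and low minus medium. Either filter on dim genes, which tests fewer genes, passed 1 member, Cd177, for medium minus high.

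The replicate numbers are shared by the gates, but same-numbered arrays did not all deviate together (r of -0.0166 to 0.309 over all genes, against -0.183 to 0.151 for other numbers), and 5 of 9 arrays correlated best with their own number, a hint from the data and not the design. With the number as a fixed replicate block, 5 members passed for low minus high, against 7.05% of all genes: S100a8 (limma adjusted p = 0.0409), S100a9 (0.00809) and Lcn2 (0.0481) joined Cd177 and Chil3. Under the block 1 member, Cd177 (0.0271), passed for medium minus high, against 0.275% of all genes, and 4 passed the F test, beside 1095 of all genes. In the block fit, the term for the replicate number gave limma adjusted p = 0.0786 for S100a9, 0.129 for S100a8 and 0.257 for Lcn2, and it passed 5 of all genes. A random block changed no count of members. Its consensus correlation was 3.08e-05, so it nearly repeats the fit without a block and is no separate check.

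Leaving out all arrays of a number, chosen after seeing the data, left 2 arrays per gate. The call of Cd177 for low minus high was lost without number 1, and that of Chil3 without number 1 or 2. Without number 1, members called were 0 for low minus high, 0 for low minus medium and 0 by F test, and genes 145, 0, 0 and 1 for low minus high, medium minus high, low minus medium and the F test. Without number 2, members called were 1, 0 and 0, and genes 127, 0, 2 and 17. Without number 3, members called were 2, 2 and 2, and genes 683, 6, 140 and 312.

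Low minus medium differences that were not called changed sign. Without single arrays S100a8 ranged over -1.17 to 0.39, S100a9 over -0.24 to 1.04 and Lcn2 over -0.66 to 0.12, S100a9 was -0.071 with array weights, and without number 1 S100a8 was 0.018 and Lcn2 0.048; the cause was not tested. Signal over background limits Ngp, Camp, Ltf, Mpo and Elane, for which no difference could be read.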
